A study of Mus musculus with 3 samples.

Results

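Plagl1 (also called Zac1) is a zinc finger transcription factor that binds GC-rich DNA and restrains the cell cycle, and its gene is imprinted. A factor can meet several matches to its motif within one open region, and such clusters may be separate stretches of DNA or one stretch read more than once, because a partly self-complementary motif can be read on both strands. The regions described here are open chromatin windows that held 3 or more matches to the Plagl1 motif. Of 13118 windows on chromosomes 1 to 19, 188 met this count (1.43%, exact 95% interval 1.24 to 1.65), and they held 602 of the 5555 sites (10.8%). For comparison, 3295 windows held 1 site, 829 held 2, and 8806 held none. The whole list has 13500 windows of 201 bp on all chromosomes.

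The windows came from ATAC-seq, in which a transposase marks accessible DNA, of cells digested from the apical part of first molars of C57BL/6 mice at postnatal day 7.5. The mutant group was 1 library of Gli1-CreER;Arid1a fl/fl mice and the control group was 2 libraries of Arid1a fl/fl mice, so both carried the floxed alleles, and the labels give tamoxifen at postnatal day 3.5 for every library. Arid1a belongs to the SWI/SNF complexes, which move nucleosomes. Gli1-CreER acts in cells that express the hedgehog target Gli1, and the labels describe no sorting of those cells. The windows are 1 list pooled over libraries, with no value per library and no read depth, so mutant and control were not compared, cell type markers could not be checked, and the values given have no error between replicates. Windows are not replicates of a condition. Intervals are 95%, cover counting error only and treat windows or sites as independent, which sites of 1 window are not. A site is a sequence match and not a measurement of binding.

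The windows were chosen by the number of sites, and counts, scores and bases of the sites come from the same motif search, so they are given as descriptions. By site number, 153 windows held 3 sites, 32 held 4 and 3 held 5. The 3 windows with 5 sites lay at the zinc finger genes Zfp334 and Zfp521 and at Atp5g3, which encodes a ring subunit of mitochondrial ATP synthase.

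Arrangements of sites that recur among these windows are shown by a few sequences, all on the plus strand of mm10. In the first 4 the capitals mark bases that belong to more than 1 site. The stretch at Atp5g3 (chr2:73911128-73911141) and the one at Igf1r (chr7:68129319-68129332) each hold a plus and a minus site 4 bases apart, the stretch at Flywch2 (chr17:23786129-23786144) holds 4 sites in 16 bases, and the stretch at Tmem40 (chr6:115730537-115730558) holds 3.
Atp5g3: cgagGGGCCCcgcg
Igf1r: tgggGGGCCCccca
Flywch2: tGAGGGGGCCCCCATt
Tmem40: tggcccctTAagGGGCCCcagg

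A pair of whole windows shows how much of the 201 bp the sites take up, with every base of a site in capitals. The bases come from RefSeq's promoter table for GRCm38.p6, the assembly behind mm10; that table holds 1439 of the sites, and at all 1439 its letters equal those of the deposited sites. The window at Notch1 is chr2:26503739-26503939, and the one with Adnp as its nearest protein-coding gene is chr2:168154531-168154731.
Notch1: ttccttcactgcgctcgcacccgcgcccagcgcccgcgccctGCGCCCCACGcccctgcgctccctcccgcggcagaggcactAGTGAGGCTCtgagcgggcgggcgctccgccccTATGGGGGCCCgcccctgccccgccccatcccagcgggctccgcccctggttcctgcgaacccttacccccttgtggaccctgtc
Adnp: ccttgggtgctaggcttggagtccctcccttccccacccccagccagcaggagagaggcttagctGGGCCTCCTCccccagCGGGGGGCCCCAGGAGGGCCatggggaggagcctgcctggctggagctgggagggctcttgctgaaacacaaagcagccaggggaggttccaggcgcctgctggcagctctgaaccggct

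Many of the clusters were fewer stretches of DNA than sites. Of the 602 sites, 251 (41.7%, 37.7 to 45.7) shared at least 1 base with another site. When overlapping sites were joined, 93 of the 188 windows (49.5%, 42.1 to 56.8) still held 3 or more separate stretches: 84 held 3 and 9 held 4. Another 84 windows came down to 2 stretches and 11 to 1. Flywch2 had the most sites in a single stretch among the named windows, with all 4 inside 16 bases. The sites of a window covered a median of 30 bases (quartiles 24 to 30, range 15 to 44) and spanned 93 bp from the first to the last (quartiles 65 to 133).

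Neighbouring sites overlapped in 135 of 414 pairs (32.6%, 28.1 to 37.4) in windows with 3 or more sites, against 191 of 829 (23.0%, 20.2 to 26.1) in windows with 2. The difference was 9.57 percentage points (Newcombe interval 4.30 to 15.0). More sites in a fixed width must lie closer together, so the shorter spacing follows in part from how the windows were chosen. The median start-to-start spacing was 26 bp in windows with 3 or more sites and 45 bp in windows with 2. Among pairs that did not overlap, it was 48 bp (quartiles 25.5 to 79.5) against 64 bp.

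**Figure D1:**
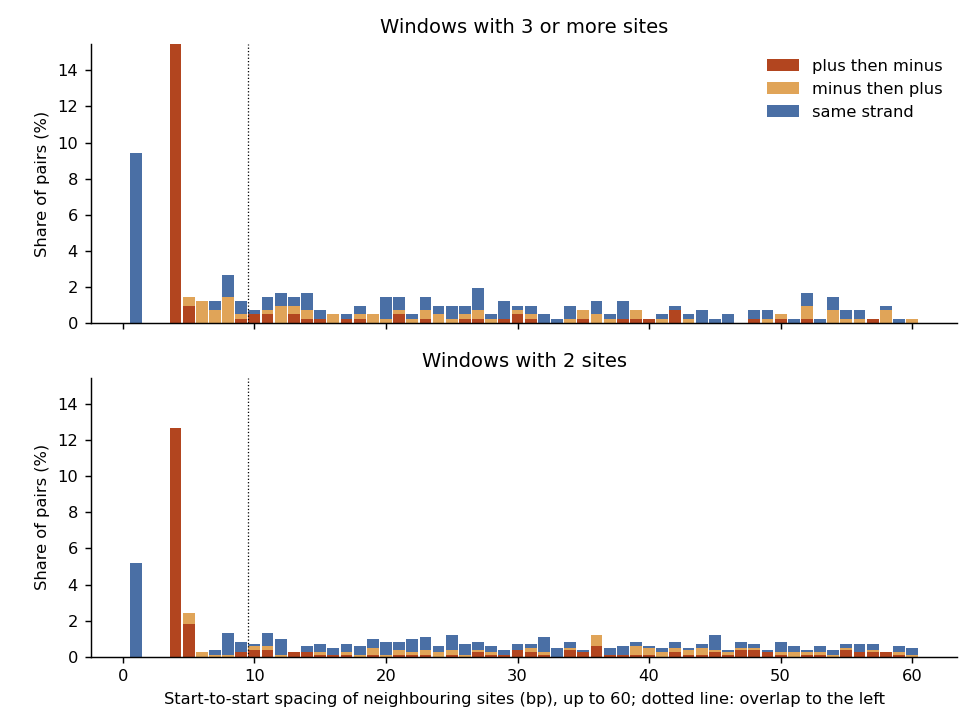
Share of neighbouring site pairs by start-to-start spacing in bp, up to 60 bp, for windows with 3 or more sites (top, 414 pairs) and windows with 2 sites (bottom, 829 pairs); colours give the strand order along the plus strand. Bars stand out at 4 bp (plus then minus) and 1 bp (same strand) in both.

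A pair of arrangements made up most of the overlaps. In the first, a plus site was followed 4 bases later by a minus site, so that the last 6 bases of one reading were shared with the other. This held for 64 of 414 pairs (15.5%, 12.1 to 19.3) in windows with 3 or more sites and 105 of 829 (12.7%, 10.5 to 15.1) in windows with 2, a difference of 2.79 points whose interval (-1.20 to 7.13) includes no difference. The shared bases, read on the plus strand, were GGGCCC in 32 pairs, GGGCCT in 15, AGGCCT in 9 and AGGCCC in 8. In the second, sites of the same strand lay 1 base apart, in 39 pairs (9.42%, 6.78 to 12.7) of windows with 3 or more sites against 43 (5.19%, 3.78 to 6.92) of windows with 2, a difference of 4.23 points (1.23 to 7.69). All 39 pairs held a run of 5 G on the motif strand. Along that strand, positions 4, 6 and 7 were G in 99.8% of the 602 sites or more, and position 5 only A or G. The run of G and the shared bases listed above are therefore nearly fixed by the motif and are not separate results. The first arrangement occurred in 63 (33.5%) and the second in 36 (19.1%) of the 188 windows.

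The plus and the minus site of a pair 4 bases apart differed in score in all but 1 of the 64 pairs. HOMER's log-odds score, a sum over the motif positions in which higher is a closer match, differed by a median of 0.402 within these pairs and by up to 1.48. In the 41 pairs whose shared bases are self-complementary (GGGCCC or AGGCCT) the median was 0.374 and the highest 1.35, and in the other 23 the median was 0.429. The pair with equal scores was self-complementary and lay at Igf1r, where both readings scored 6.73. At Atp5g3 the plus reading scored 6.82 and the minus reading 6.01. The score range of all sites in these windows ran from 5.51 to 7.55.

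Plus and minus sites were about equally common, and the order of strands differed from windows with 2 sites among neighbours that did not overlap. Of the 602 sites, 302 (50.2%, 46.1 to 54.2) lay on the plus strand, against 51.7% of single sites, a difference of -1.49 points (-5.82 to 2.84). Among windows with 3 sites, all of the 8 possible orders occurred: plus-minus-plus in 25, minus-plus-minus in 24, all plus in 23, all minus in 20, plus-plus-minus in 20, plus-minus-minus and minus-minus-plus in 17 each, and minus-plus-plus in 7. Neighbours that did not overlap were minus then plus in 84 of 279 pairs (30.1%) and plus then minus in 47 (16.8%), where windows with 2 sites had 151 and 158 of 638 (23.7% and 24.8%). The differences were 6.44 points (0.297 to 12.9) and -7.92 points (-13.2 to -2.13). By construction, a plus-then-minus overlap leaves a minus site at its right edge and a plus site at its left. In the windows without any overlapping pair, 41 of 161 pairs (25.5%, 18.9 to 32.9) were minus then plus and 36 (22.4%, 16.2 to 29.6) plus then minus. Here the differences from windows with 2 sites were 1.80 points (-5.21 to 9.69) and -2.40 points (-9.13 to 5.32). These intervals include 0 and also the differences over all pairs that did not overlap. Whether the order differs only beside overlaps was not tested. The same strand held 84 of those 161 pairs (52.2%) against 329 of 638 (51.6%) in windows with 2 sites, a difference of 0.607 points (-7.98 to 9.12).

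**Figure D2:**
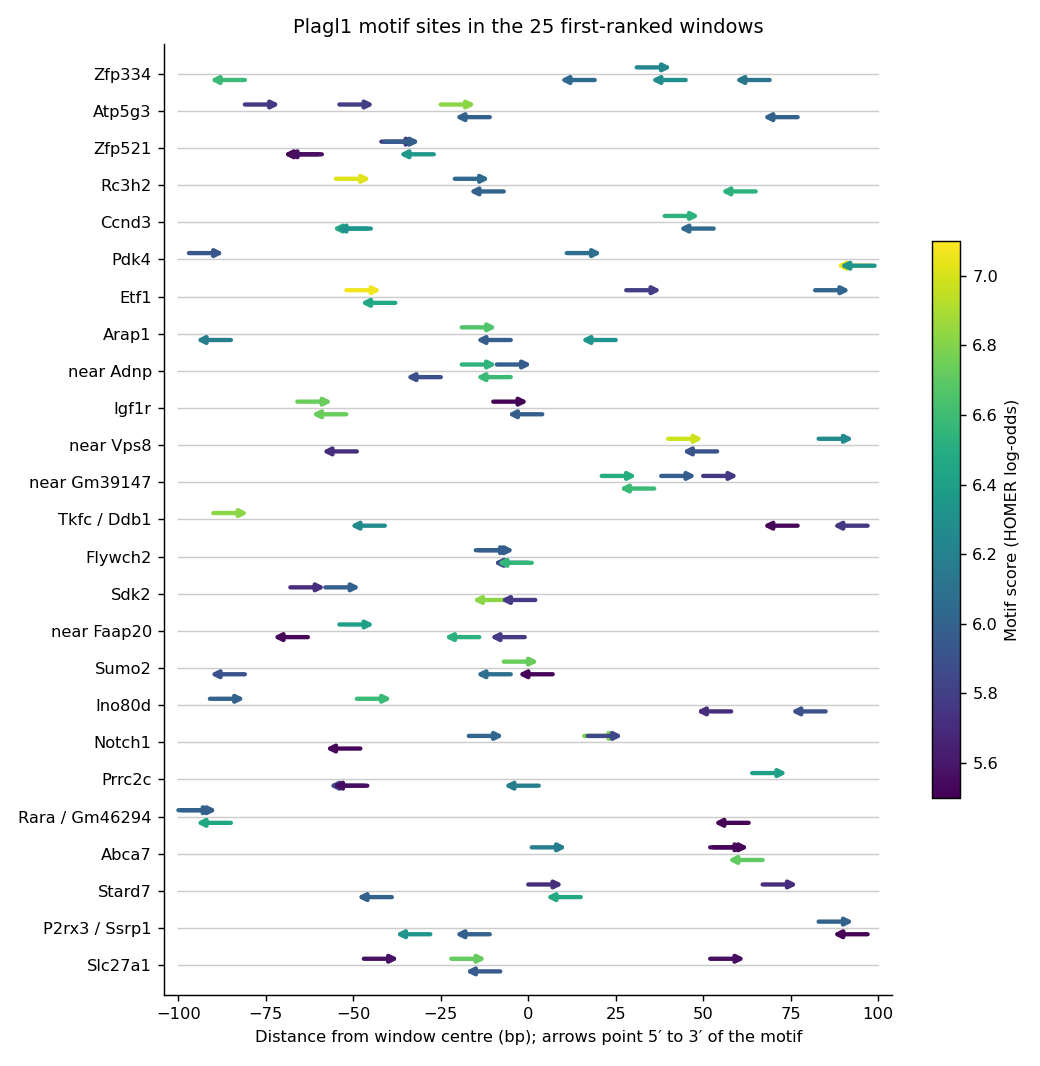
Sites in the 25 first-ranked windows (1 line each, ordered by number of sites and then summed score), at their distance in bp from the window centre; arrows point 5′ to 3′ of the motif, above the line for the plus and below it for the minus strand, and colour gives the score. Many windows, such as Igf1r, show a plus and a minus arrow 4 bases apart, while those of Tkfc / Ddb1, Faap20 and Ino80d hold 4 separate sites.

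The bases of the sites differed from those of single sites over all sites, while sites that overlapped no other had intervals of the difference that include 0. Positions are numbered along the motif strand, with 1 as its most 5′ base. Position 5 was A in 232 of 602 sites (38.5%, 34.6 to 42.6) against 1549 of 3295 single sites (47.0%), a difference of -8.47 points (-12.6 to -4.17). Positions 5 to 10 read GGGCCC in 137 sites (22.8%) against 420 single sites (12.7%), 10.0 points more (6.63 to 13.7), and positions 3 to 7 were all G in 108 (17.9%) against 358 (10.9%). Self-complementary bases or a run of G can give a further overlapping site, which raises the count by which the windows were chosen. Single sites overlap no other by definition. The differences over all sites thus follow in part from how the windows were chosen. Among the 351 sites of these windows that overlapped no other, A at position 5 made up 46.4%, GGGCCC 13.4% and the run of G 10.8%. These differed from single sites by -0.572 (-6.00 to 4.93), 0.644 (-2.74 to 4.75) and -0.0387 points (-3.08 to 3.78). The 602 sites used 303 different sequences, and 9 of the 188 windows (4.79%, 2.21 to 8.89) held the same site sequence more than once.

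The scores of the sites ran slightly higher than those of single sites. The median was 5.99 (interval of the median 5.97 to 6.03) over the 602 sites, 5.97 (5.92 to 5.98) over the 1658 sites of windows with 2, and 5.92 (5.90 to 5.93) over the 3295 single sites. A score of 6 or more was reached by 299 of 602 sites (49.7%, 45.6 to 53.7) against 1356 of 3295 single sites (41.2%, 39.5 to 42.9), 8.51 points more (4.19 to 12.8). Sites that overlapped no other were also above single sites in this, with 167 of 351 (47.6%), 6.43 points more (0.986 to 11.9). Scores of 7 or more were reached by 27 sites of these windows (4.49%) and by 117 single sites (3.55%), and the interval of the difference (-0.612 to 2.98 points) includes 0. Within a window the best score was a median of 0.687 above the lowest. The best score of a window (median 6.51) was above that of single sites and the lowest (median 5.70) below it, as taking the highest and lowest of several values does by itself.

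**Figure D3:**
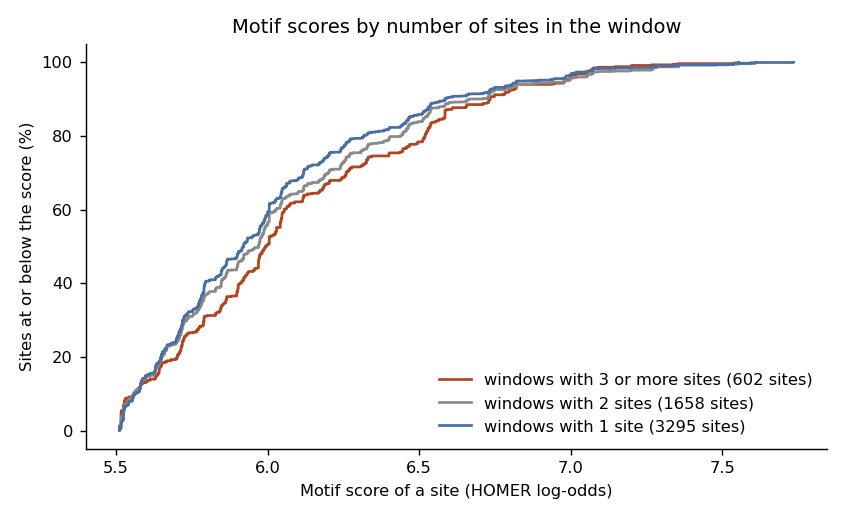
Cumulative share of sites by motif score for windows with 3 or more sites (602 sites), 2 sites (1658) and 1 site (3295). The curve of windows with 3 or more sites lies lowest over most of the range, with medians of 5.99, 5.97 and 5.92, and the curves meet at the highest scores.

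The 27 sites that scored 7 or more were spread over 24 windows, 3 of which held 2. The 5 windows with the highest mean score lay nearest C87436 (mean 7.09), inside Tmem40 (7.08), inside Acot11 (6.85), nearest Rab11fip4 (6.79) and at Col1a1 (6.69). Acot11 is an acyl-CoA thioesterase of lipid metabolism and Rab11fip4 an effector of the recycling GTPase Rab11. C87436 and Rab11fip4 are nearest among protein-coding genes only, with an end 17262 and 6368 bp away. Those windows lay 577 bp downstream of the start of 2310040G24Rik and 186 bp upstream of that of Gm11205. The best single match among the 602 sites was the middle site of the stretch at Tmem40 shown above, with 7.55. At the threshold, windows with 3 sites had a median site score of 6.01 and a median GC content of 69.7%, and those with 2 sites, just outside it, 5.97 and 68.7%.

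The median GC content was slightly above that of single-site windows, with intervals that overlap, and the order turned under other ways of counting sites. The median CpG content was slightly below. The median GC content was 69.2% (interval 67.2 to 70.6, quartiles 62.2 to 75.1) in windows with 3 or more sites and 67.2% (67.2 to 67.7) in windows with 1. The median number of CpG dinucleotides per 100 steps was 8.5 (7.5 to 9) against 9 (9 to 9.5). Near gene ends, where 117 of the 188 windows lay, the medians were 71.1% (69.7 to 72.6) and 69.2% (68.7 to 69.2), and these intervals do not overlap. Outside genes they were 63.7% (60.2 to 65.7, 31 windows) and 57.2% (56.2 to 58.7, 417 windows), and these intervals do not overlap either. Inside genes the medians were 64.7% (58.2 to 70.1) and 65.2% (64.7 to 66.2). With 4 or more sites as the threshold the median was 65.2%, below the 67.2% of single-site windows. With overlapping sites joined it was 67.2% against 67.7%, and with only sites scoring 6 or more it was 65.2% against 67.7%. The interval of each of these lower medians included the median it was compared with.

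Across bands of GC content the share of windows with 3 or more sites did not climb steadily. None of 468 windows under 45% GC met the count, where the interval reaches up to 0.785%, and 2 of 569 did from 45 to 50%. From 50 to 75% the share lay between 1.11% and 1.68%, then it was 2.51% (41 of 1633, 1.81 to 3.39) from 75 to 80% and 1.51% (10 of 661) from 80% up. Of windows that had a site at all, 6.95% met the count from 75 to 80% GC. By CpG, the share was 1.83% in windows under 3 CpG per 100 steps and 1.13% in those with 12 or more, with overlapping intervals (1.24 to 2.61 and 0.810 to 1.53).

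**Figure D4:**
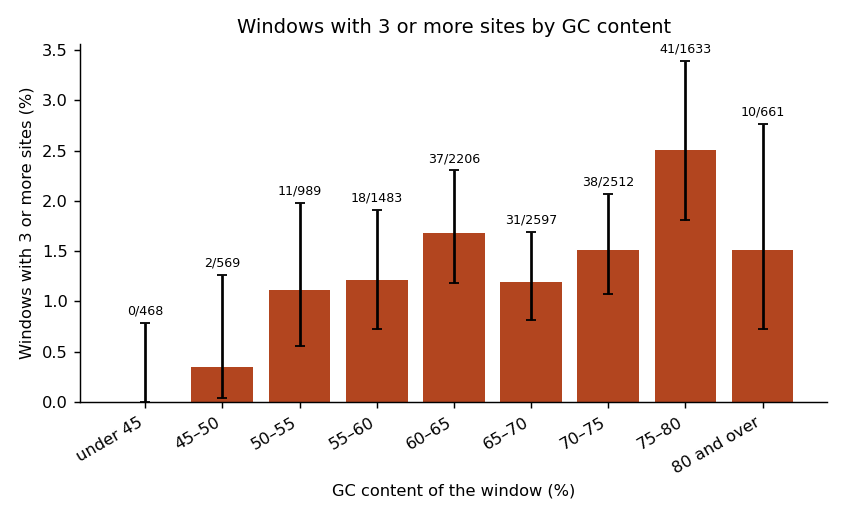
Percentage of windows with 3 or more sites in bands of window GC content in percent; bars are the share, error bars its exact 95% interval, and the numbers give windows with 3 or more sites over all windows of the band. The band from 75 to 80% stands highest at 2.51%, and no window under 45% met the count.

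By chromosome, the share of windows with a site that met the count ran from 0.452% on chromosome 10 (1 of 221, 0.0115 to 2.50) and 1.11% on chromosome 9 (3 of 270) to 6.57% on chromosome 14 (9 of 137, 3.05 to 12.1). Chromosomes 7, 2 and 11 held the most, with 22, 21 and 21. There were 4 pairs of these windows that lay within 100 kb of each other, among them those nearest Mog and Gabbr1 on chromosome 17, 17472 bp apart, and those at Ccnd3 and Bysl, 99972 bp apart.

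The share near gene ends was below that of single-site windows, with an interval of the difference that includes 0, but some other settings set them apart. A gene end is either end of a protein-coding gene of RefSeq's GRCm38.p6 table, which gives no strand. Within 1 kb of one lay 117 of 188 windows (62.2%, 54.9 to 69.2) against 2251 of 3295 single-site windows (68.3%, 66.7 to 69.9), a difference of -6.08 points (-13.4 to 0.731). Another 40 (21.3%) lay inside genes and 31 (16.5%) outside, against 19.03% and 12.7% of single-site windows, and both differences had intervals that include 0. With ends of all annotated genes, the share near an end was 66.0% (58.7 to 72.7) against 74.6%. With overlapping sites joined it was 57.0% (46.3 to 67.2) against 68.0%, and with 2 or more sites 63.4% (60.4 to 66.4) against 68.3%. Under the remaining alternatives the interval held the compared share.

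Where a gene start lay within 1 kb, a larger share of these windows had its midpoint over 200 bp downstream of it, while the intervals of the median position overlapped. Starts with their direction came from the RefSeq promoter table, which was not used for chromosome 18 and lacks some genes elsewhere. A start within 1 kb was found for 111 of 183 windows (60.7%) against 2150 of 3208 single-site windows (67.0%). The midpoint lay at a median of 109 bp downstream of the start (interval 66 to 161, quartiles -1.5 to 222), against 61 bp (53 to 69) for single-site windows and 73 bp (57 to 89) for windows with 2 sites. Over 200 bp downstream lay 30 of 111 (27.0%, 19.04 to 36.3) against 373 of 2150 (17.3%, 15.8 to 19.02), 9.68 points more (2.10 to 18.7). Any position downstream held 82 of 111 (73.9%) against 65.2%, a difference of 8.71 points whose interval (-0.381 to 16.3) reaches 0.

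**Figure D5:**
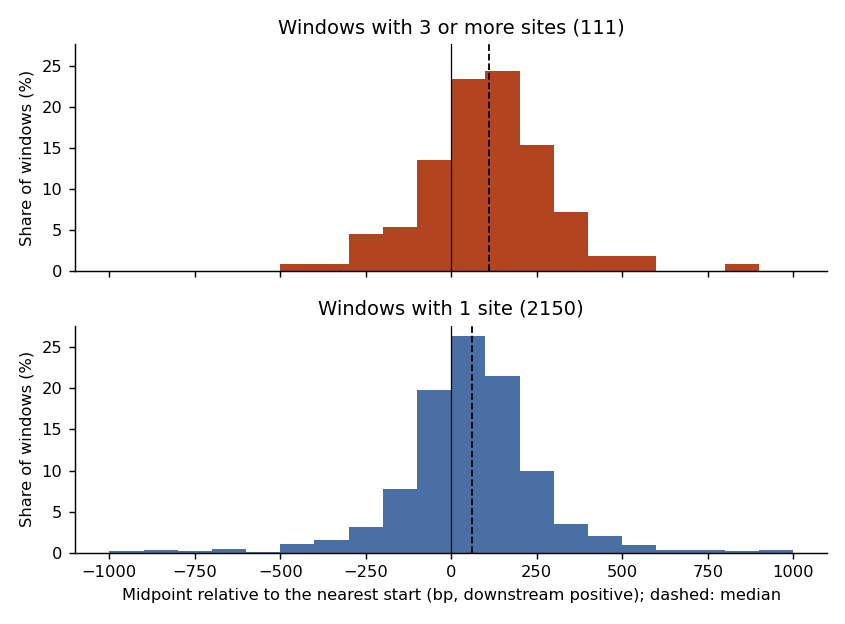
Position of the window midpoint relative to the nearest annotated gene start in bp (downstream positive), as a share of windows with a start within 1 kb, for 111 windows with 3 or more sites (top) and 2150 with 1 site (bottom). The dashed medians stand at 109 and 61 bp downstream.

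The windows were assigned to 208 genes whose body held the midpoint or that had an end within 1 kb, 175 of them protein-coding, and 20 windows had no assigned gene. No gene had more than 1 such window, and 38 windows (20.2%) were assigned to 2 or more genes against 26.3% of single-site windows, with a difference interval of -11.4 to 0.381 points. Of the 11387 protein-coding genes with a window, 1.54% thus had one with 3 or more sites, the share against which the lists below are to be read.

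Genes of the pathways that the series concerns were counted beside this background. Of 20661 protein-coding genes counted in the same way, 11387 had a window and 4074 a site. The counts of list genes with a window or a site were not tested against these. Of 22 hedgehog genes 19 had a window and 13 a site, and none had 3 sites in one window. The same held for the cell cycle inhibitors (21 of 21 with a window, 5 with a site), SWI/SNF subunits (26 of 28, 12 with a site), BMP and TGF-beta genes (27 of 32, 13 with a site) and dental mesenchyme genes (16 of 20, 5 with a site). At the background of 1.54%, each of these lists would hold under 1 such gene, so a count of 0 is not a result about them. Markers of dental epithelium, endothelium and immune cells had 1 of 7, 1 of 4 and 2 of 4 genes with a window, and none had 3 sites.

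A single member appeared in each of 4 other lists, which are too small for 1 gene to be a result beside the background of 1.54%. Ccnd3, which encodes the G1 cyclin D3, was 1 of 34 cell cycle drivers with a window, Lrp6, the Wnt co-receptor, 1 of 26 Wnt genes, Col1a1, the main chain of the type I collagen of dentine and bone, 1 of 9 odontoblast and bone genes, and Kcnq1, a potassium channel gene in an imprinted cluster, 1 of 15 imprinted genes. Their sites were arranged in different ways. At Ccnd3 the window chr17:47511237-47511437, inside the gene and 6286 bp downstream of its start, held 4 sites in 2 stretches: minus sites 1 base apart with 6.51 and 6.33, and, within a span of 109 bp, a plus and a minus site 4 bases apart with 6.53 and 6.05. At Kcnq1 3 sites fell in 1 stretch of 17 bases, 47235 bp from a gene end. Capitals again mark bases of more than 1 site.
Ccnd3, first stretch, chr17:47511281-47511291: aGGCCCCCTTg
Ccnd3, second stretch, chr17:47511376-47511389: tcagGGGCCCccgg
Kcnq1, chr7:143154085-143154101: gtgcccCACGGGGGCCc

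At Col1a1 and Lrp6 the sites stood apart. The Col1a1 window, chr11:94936119-94936319, had its midpoint 5 bp from an end of the gene and held 3 plus sites within 78 bp, with 7.34, 6.20 and 6.52. The Lrp6 window, 53 bp from a gene end, held 3 minus sites within 59 bp, with 6.12, 5.53 and 5.97. Sites of the Col1a1 window are given 5′ to 3′ with positions 4 to 7 in capitals, to show that the core is GGGG in one and GAGG in the others.
Col1a1, chr11:94936228-94936237: aaaGGGGccc
Col1a1, chr11:94936282-94936291: cagGAGGcac
Col1a1, chr11:94936296-94936305: agtGAGGcca

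The windows with the most sites were at genes of many kinds. The Zfp334 window (chr2:165388097-165388297) lay 62 bp downstream of the start, and its 5 sites scored 6.59, 6.04, 6.24, 6.28 and 6.12, the scores of 6.24 and 6.28 being readings of the same stretch. The Atp5g3 window (chr2:73911053-73911253) lay 173 bp downstream of a start, and its sites scored 5.77, 5.79, 6.82, 6.01 and 6.01. At Zfp521, a zinc finger regulator of progenitor cells, the 5 sites on chromosome 18 formed 2 stretches, and their mean score of 5.83 was the lowest of the 3 windows.

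Of the 22 windows with 4 sites that came next in rank, several lay at genes of signalling and transcription. The Notch1 window, 17 bp upstream of the start of this receptor gene, held sites of 5.53, 6.03, 6.78 and 5.84, the last pair 1 base apart. The Igf1r window lay deep inside the gene for the receptor of insulin-like growth factor 1, 104283 bp from its nearer end. It held 2 stretches, each a plus and a minus site 4 bases apart. Both readings of the first scored 6.73, and those of the second 5.52 and 5.97. The Rara window, 10 bp downstream of a start of this retinoic acid receptor gene, had 3 of its sites in 15 bases. Others lay at Rc3h2, an RNA-binding ubiquitin ligase (mean score 6.40, the highest among the 25), Arap1, a regulator of Arf GTPases, and Ino80d, a subunit of the INO80 remodelling complex with 4 separate sites.

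Further windows of this rank lay at genes of metabolism, protein turnover and the nucleus. Pdk4, a kinase that inhibits pyruvate dehydrogenase, had sites of up to 7.05 in a window 212 bp upstream of its start. Slc27a1, a fatty acid transporter, Stard7, a phosphatidylcholine transfer protein, and Abca7, a lipid transporter, had mean scores of 5.95, 5.97 and 6.00. Etf1, the translation termination factor on chromosome 18, had a best score of 7.07, and Sumo2, a small protein modifier, had 3 sites in a stretch of 22 bases. The window at Tkfc and Ddb1, the adaptor of a ubiquitin ligase, lay 12 bp downstream of the Ddb1 start with 4 separate sites of 6.82, 6.27, 5.53 and 5.77. The window at P2rx3 and Ssrp1, a subunit of the histone chaperone FACT, lay 65 bp upstream of the Ssrp1 start. The rest of the 22 lay at Flywch2, Sdk2 and Prrc2c.

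Outside protein-coding genes lay 4 of the 25. Among such genes the nearest were Adnp, a homeobox protein of chromatin, the endosomal gene Vps8, Gm39147 and the Fanconi anaemia gene Faap20. The window nearest Adnp was 26334 bp from any protein-coding gene end but 118 bp upstream of the start of the noncoding RNA E130018N17Rik. Its 4 sites, of 5.90, 6.54, 6.59 and 5.97, took up 30 bases within 36 bp, as shown above. Long runs of overlapping sites were also present at Akt2, a kinase of insulin signalling (3 sites in 22 bases), and at Coro7 and Vasn (3 in 21).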

How the data were processed

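The submitters' processing notes name Bowtie2 2.3.5 and MACS2 2.1.1, then Picard, edgeR and bedtools, and cutadapt 1.18 beside FastQC 0.11.8, with mm10 as genome. HOMER (annotatePeaks) searched, per the file headers, a union list of 13500 regions for 1 motif in windows around their centres. The sources used here do not describe how those regions were picked. The deposited GC and CpG values are a fraction of bases and, for CpG, of steps between bases, per the file headers, and were turned into percent and per 100 steps. The deposited score is HOMER's log-odds score, of unstated log base.

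Sites were read from the annotation, and each of the 5753 matched an entry of the deposited list of scores by position and strand. Pairs are neighbouring sites of a window. Shares carry Clopper-Pearson intervals, differences of shares Newcombe intervals, and medians exact binomial order-statistic intervals. No p-value was computed. The functions were tested on simulated windows. Tools were Python 3.11.15 with pandas 2.3.3, scipy 1.17.1, statsmodels 0.14.6, numpy 2.4.6 and, for plots, matplotlib 3.10.9.

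Windows were ranked by number of sites, then summed score; the first 25 are named, with those of the most stretches, longest overlaps and highest mean scores (5 each) and members of 12 gene lists (251 genes, all matched by symbol). The windows and lists were chosen with earlier results of these data known.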

Additional observations from a re-analysis of the deposited data

Results flagged for a closer look

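Chromosome X, which the count of 188 windows does not include, held 15 windows with 3 or more sites among its 377 windows (3.98%, exact 95% interval 2.24 to 6.48). It is given here as a signal outside the chromosomes described. Of these 15, 4 had Asmt, which encodes an enzyme of melatonin synthesis, as nearest protein-coding gene. They lay between 170736544 and 170843179, 58590 to 165025 bp from that gene, and held 5, 5, 6 and 7 sites. In the window with 7 sites, 6 shared 1 sequence. In these 4 windows neighbouring sites lay 31 bp apart in 13 of 19 pairs, and in the other 11 windows in 0 of 24, against 4 of 414 pairs on chromosomes 1 to 19, where no window had more than 5 sites.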

How the results depend on the processing

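Of 56 values under alternatives, 39 stayed within the interval of the main value (counts within 1.5 times) and 17 moved. With 4 or more sites as the threshold there were 35 windows, 54.3% of them near a gene end, with a median GC content of 65.2%, below the 67.2% of single-site windows, and 38.9% of pairs overlapping. With 2 or more there were 1017 windows, 26.2% of pairs overlapped and the median spacing was 38 bp. With overlapping sites joined there were 93 windows, 54.4% of pairs lay on the same strand, the spacing was 39 bp, and median GC was 67.2% against 67.7% in windows with 1 stretch. With only sites scoring 6 or more there were 31 windows, a median GC of 65.2% against 67.7%, a median score of 6.52 and 34.8% of pairs on the same strand. Gene ends within 3 kb took the share to 70.2% against 75.1% of single-site windows. The mean score per window had a median of 6.06 and the lowest a median of 5.70, below the 5.92 of single sites. The order of the GC medians thus turned with the threshold and with how sites were counted. The intervals of these lower medians were 62.7 to 71.1% with 4 or more sites, 64.2 to 70.1% with sites joined and 63.2 to 74.6% with scores of 6 or more. Each held the compared median, so a lower GC content is not shown either. The cause was not tested. No 2 windows shared a base, so that alternative changed nothing. No paired analysis was possible because no value in the deposited lists belongs to a single library. Depth is unknown.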

Other observations

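In the window inside Cobl, an actin-nucleating protein gene, at chromosome 11, 12375020 to 12375220, a pair of site sequences each occurred at 2 places 96 bp apart, on the same strands and with scores of 5.77 and 6.07. The window ranked 26 and was picked out after its values were seen. Copies of 1 site sequence also lay 88 bp apart at Atp5g3 and at Zfp523, 81 bp apart at Map2k4, and 7 bp apart at Ankrd40.

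The 2 site sequences seen most often in the 188 windows are given 5′ to 3′ on the motif strand, since both end in the self-complementary bases. The first occurred 21 times in 19 windows (score 5.52), 3.49% of the 602 sites, against 48 times (1.46%) among the 3295 single sites. The second occurred 13 times (score 6.59, 2.16%), against 20 times (0.607%). Sites that can be read on both strands raise the count by which the windows were chosen.
First: CCCGGGGCCC
Second: CCTGGGGCCC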
